A study of Homo sapiens with 12 samples.

Results

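L-1236 is an established Hodgkin lymphoma cell line, and 6 of the series' 12 arrays come from it. Ranked by their GATA3 value, these 6 arrays fell into 3 with higher and 3 with lower GATA3, whatever their shRNA label, and this split is described here. The higher set held the arrays labelled siSCR replicates 1 and 2 and siGATA-3 replicate 1, and the lower set held siSCR replicate 3 and siGATA-3 replicates 2 and 3. The split was chosen from measured values, so the L-1236 differences below are descriptions and carry no test.

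All 12 samples were transduced with an shRNA, either against GATA-3 (labelled siGATA-3) or a control without function (labelled siSCR), 3 samples per label in L-1236 and in a second Hodgkin line, U-HO1. Cells were cultured for 3 days, L-1236 in RPMI and U-HO1 in IMDM, GFP-positive cells were sorted, and RNA from 25000 cells was amplified for a whole-transcript array. The samples of a label are called independent, without saying whether they came from separate transductions or passages, so the spread between arrays may be technical. The values are taken as log2 from their range, with the normalization unstated, and the medians of the arrays ran from 6.96 to 7.09. Any pair of arrays of 1 line correlated across probe sets at 0.986 or more. Markers of Hodgkin cells were present, with IRF4 between 11.32 and 11.55 and TNFRSF8, which encodes CD30, between 9.36 and 9.92 on the L-1236 arrays. TRAF1 was the lowest of these markers, at 6.75 to 7.23, around the array medians. Means over T-cell, NK-cell and monocyte markers lay between 5.84 and 6.47 in both sets, below the median of every array. NKG7, 1 of the NK-cell markers, read above every array median, at 7.34 to 7.67. Means over B-cell markers were 7.17 to 7.29, with MS4A1, the gene for CD20, at 5.63 to 5.89 and PAX5 at 9.22 to 9.93. Means over epithelial markers were 6.90 to 7.20, around the array medians. Bulk RNA cannot tell fewer cells of a type from less RNA per cell.

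GATA3 encodes a zinc-finger transcription factor that binds GATA sequences in DNA and directs T-helper 2 differentiation. In T cells it promotes transcription of the IL4, IL5 and IL13 cytokine genes and restrains STAT4, which carries interleukin-12 signals in T-helper 1 cells. Hodgkin cells descend from B cells, which normally lack it, yet many Hodgkin lines express GATA3.

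GATA3 read 10.80 on the array labelled siGATA-3 replicate 1, 10.69 on siSCR replicate 2 and 10.29 on siSCR replicate 1. It read 10.24 on siGATA-3 replicate 3, 10.00 on siGATA-3 replicate 2 and 9.95 on siSCR replicate 3. The array with the most GATA3 therefore carried the label of the knockdown, and the array with the least carried that of the control. Whether labels were exchanged between samples was not tested, and the labels are used as given. The sets averaged 10.59 ± 0.27 and 10.06 ± 0.15 (SD, n = 3 each), a log2 difference of 0.53 that the ranking itself fixes. The arrays on both sides of the boundary, siSCR replicate 1 and siGATA-3 replicate 3, were only 0.054 apart, while the higher set spanned 0.505. Within each label GATA3 differed by 0.54 between the siSCR arrays of the sets and by 0.68 between the siGATA-3 arrays. Both signs were likewise fixed by the ranking.

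The 3 arrays of the higher set were also the first 3 of the 6 L-1236 samples in the order of deposition. GATA3 level and deposition order therefore cannot be told apart in L-1236. In U-HO1, ranking by GATA3 gave the same label and replicate combinations, with 11.24, 11.07 and 10.90 on siSCR replicate 1, siGATA-3 replicate 1 and siSCR replicate 2. The lower U-HO1 arrays, siSCR replicate 3 and siGATA-3 replicates 3 and 2, read 10.24, 10.22 and 10.12. The U-HO1 boundary was wider, with a gap of 0.66, but there too the higher arrays were the first 3 in deposition order. Whatever moved with that order in both lines cannot be told apart from GATA3 either.

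Over the 32320 probe sets other than GATA3, the higher and lower L-1236 arrays did not overlap for 4258, or 13.2%, of which 2458 (7.61%) were higher and 1800 (5.57%) lower in the higher-GATA3 set. A difference of at least 1.5-fold was asked in addition, which left 82 probe sets, 0.254% of all. Of these, 14 (0.0433%) were higher and 68 (0.21%) were lower where GATA3 was higher. That imbalance depended on scaling: after quantile normalization 26 were higher and 44 lower, and after centring of array medians 9 were higher and 100 lower. Leaving out siGATA-3 replicate 1 raised the count to 223, siSCR replicate 2 to 180, siGATA-3 replicate 3 to 207 and siSCR replicate 3 to 129. Without siGATA-3 replicate 2 it was 101 and without siSCR replicate 1 it was 95. Sets with fewer arrays separate more easily, so a rise was favoured in advance. The 82 differed by 0.59 to 2.18 on the log2 scale, with a median of 0.68, and 61 of them carry 1 gene symbol. Another 72 probe sets reached 1.5-fold while their arrays overlapped. The smallest fold inside the limit was 1.501 and the largest just outside it was 1.4999.

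The study's own comparison, siGATA-3 against siSCR in L-1236 by labels that GATA3 goes against on some arrays, called 0 probe sets at an adjusted p under 0.05 (limma over 12 arrays, 0.0% called), with 1542 (4.77%) under an unadjusted 0.05 where 1616 would be reached by chance. Among the 82, the count under an unadjusted 0.05 was 1. Each set holds both labels, so choosing probe sets that separate the sets favours a wide spread within labels and a low count. The median of the 68 lower probe sets was -0.68 between the siSCR arrays of the sets and -0.70 between the siGATA-3 arrays. For the 14 higher ones these medians were 0.90 and 0.67. Since the sets do not overlap for these probe sets, both signs were fixed by how they were chosen.

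**Figure D1:**
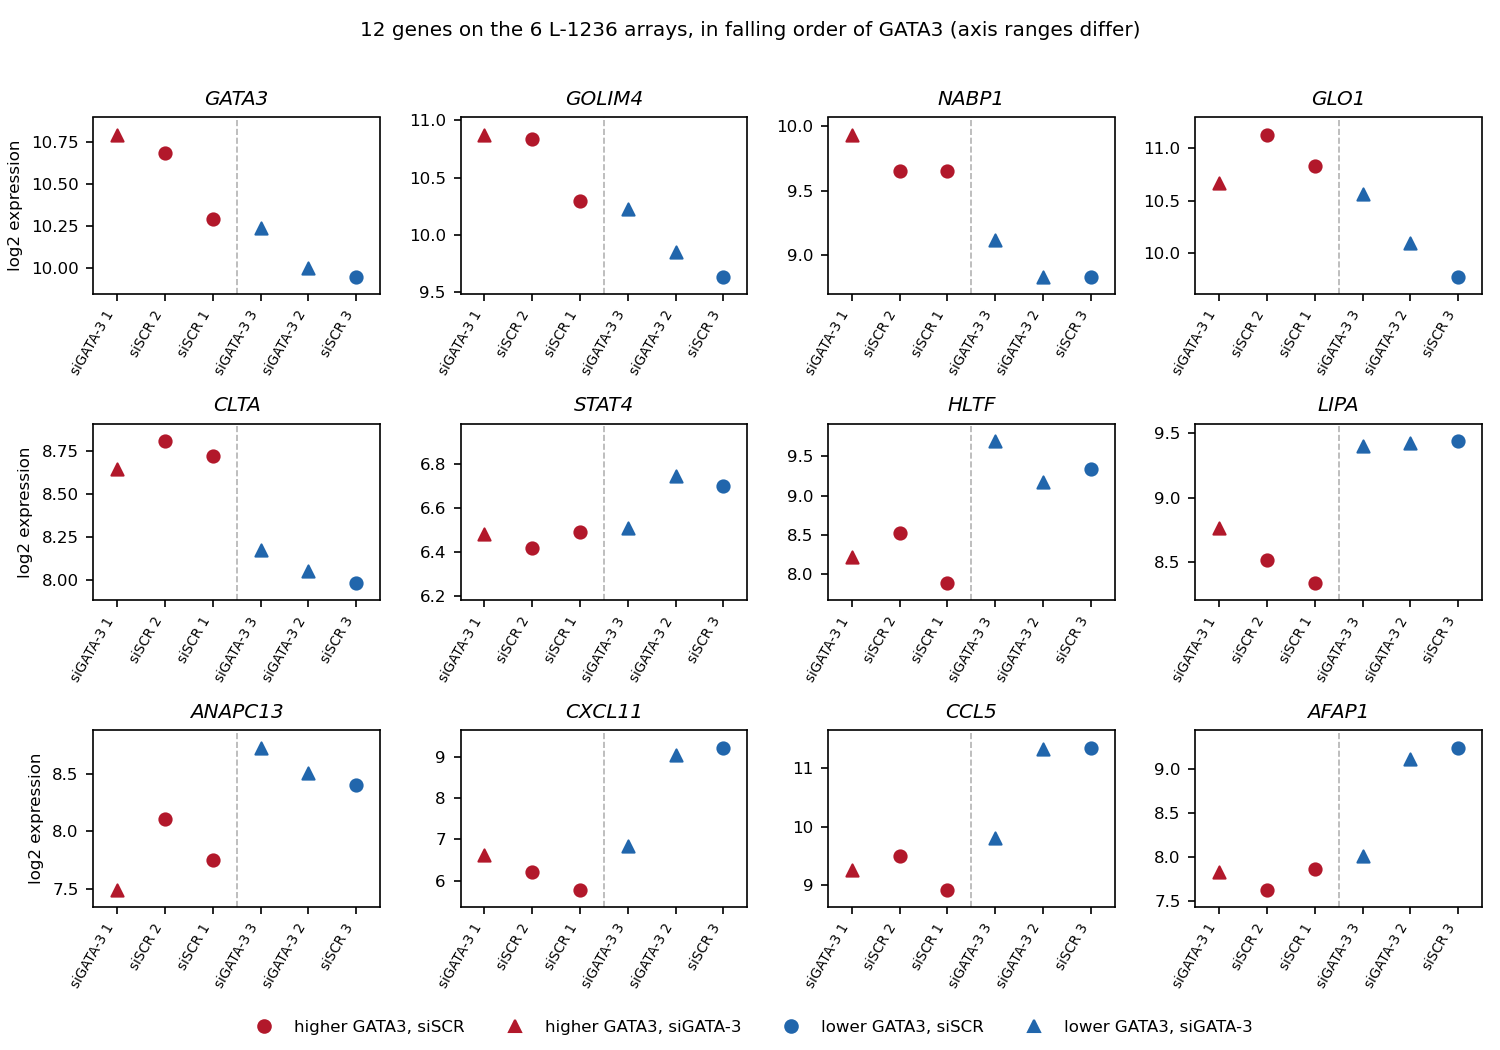
Log2 expression (y axis) of 12 genes on the 6 L-1236 arrays (x axis), ordered from the highest to the lowest GATA3 value, 1 panel per gene with its own axis range. Red marks the higher and blue the lower GATA3 set, circles siSCR and triangles siGATA-3. HLTF, LIPA, ANAPC13, CXCL11, CCL5 and AFAP1 are higher on all 3 lower arrays than on any array of the higher set. Of these, CXCL11, CCL5 and AFAP1 stand high on siGATA-3 replicate 2 and siSCR replicate 3 and lower on siGATA-3 replicate 3.

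Counted by gene, 61 (0.331%) met these limits, 10 of them (0.0543%) higher and 51 (0.277%) lower with higher GATA3. The 10 higher genes differed in how U-HO1 behaved. NABP1, a single-stranded DNA binding protein of the DNA damage response, read 9.93, 9.65 and 9.65 on the higher arrays in falling order of GATA3, and 9.12, 8.84 and 8.84 on the lower ones. That is a log2 difference of 0.81, and U-HO1 showed -0.00 for the same split (SE 0.08). PLOD2, a collagen lysyl hydroxylase, read 8.78, 8.51 and 8.86 against 8.36, 8.09 and 7.39, a difference of 0.77, with siSCR replicate 3 lowest. PLOD2 read 5.59 to 6.11 on the U-HO1 arrays, where the difference was -0.10 (SE 0.13). GOLIM4, a membrane protein of the Golgi, read 10.88, 10.83 and 10.29 against 10.23, 9.85 and 9.64. Its difference was 0.76 in L-1236 and 0.10 (SE 0.10) in U-HO1. NABP1, PLOD2 and GOLIM4 thus separated the L-1236 arrays but had overlapping U-HO1 arrays.

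The other 7 separated the arrays of both lines in the same direction. GLO1, the glyoxalase that clears methylglyoxal, read 10.67, 11.13 and 10.84 against 10.57, 10.09 and 9.77 in L-1236. Its difference was 0.74 in L-1236 and 0.83 (SE 0.11) in U-HO1, where limma gave an adjusted p of 0.071. The gap was narrow in L-1236, where siGATA-3 replicate 1 and replicate 3 were 10.67 and 10.57. DCTD, which deaminates dCMP on the way to thymidine nucleotides, differed by 0.73 in L-1236 and 0.78 (SE 0.14) in U-HO1. CLTA, a clathrin light chain, read 8.64, 8.80 and 8.72 against 8.18, 8.05 and 7.98, and its differences were 0.65 and 0.66 (SE 0.10). The spread within each CLTA set was small, with SDs of 0.08 and 0.10 in L-1236. CHRNA6, a nicotinic acetylcholine receptor subunit, differed by 0.67 and 0.75, SELENOF, a selenoprotein of the endoplasmic reticulum, by 0.70 and 0.53, and MID1, a microtubule-bound ubiquitin ligase, by 0.64 and 0.51. C1orf52 differed by 0.59 and 0.49. None of these 7 passed an adjusted p of 0.05 in U-HO1 (limma, 0.071 to 0.582).

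The genes with less RNA where GATA3 was higher showed the largest differences of the split, led by chemokines. CXCL11, an interferon-inducible ligand of the receptor CXCR3, read 6.62, 6.20 and 5.78 on the higher arrays and 6.85, 9.07 and 9.24 on the lower arrays. The difference of -2.18 therefore came mainly from siGATA-3 replicate 2 and siSCR replicate 3, while siGATA-3 replicate 3 stood only 0.23 above the higher set. CCL5, a chemokine for T cells and monocytes, read 9.26, 9.49 and 8.92 against 9.80, 11.33 and 11.35, a difference of -1.60. AFAP1, an actin filament-associated protein, and BAMBI, a decoy receptor of TGF-beta signalling, repeated this shape with differences of -1.01 and -0.94. BAMBI read 7.20 on siGATA-3 replicate 3, against 7.19 on siSCR replicate 1, and 8.36 and 8.37 on the other lower arrays. In U-HO1 the same genes differed by 0.14 (CXCL11), -0.13 (CCL5), 0.08 (AFAP1) and -0.17 (BAMBI), with overlapping arrays and adjusted p-values of 1.00 in limma.

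For other genes siGATA-3 replicate 3 lay nearer to the other lower arrays than to the higher set. HLTF, a DNA translocase of damage tolerance, read 8.22, 8.53 and 7.88 against 9.69, 9.17 and 9.34, a difference of -1.19. LIPA, the lysosomal acid lipase, read 8.76, 8.52 and 8.34 against 9.40, 9.42 and 9.44, a difference of -0.88. The 3 lower arrays lay within a few hundredths of each other for LIPA, so siGATA-3 replicate 3 did not stand apart. MYD88, the adaptor of Toll-like receptors, read 9.96, 9.75 and 9.11 against 10.26, 10.47 and 10.68, a difference of -0.86. SFXN1, which carries serine into mitochondria, read 9.50, 10.05 and 9.66 against 10.85, 10.49 and 10.27, a difference of -0.80. ANAPC13, a subunit of the anaphase-promoting complex, read 7.49, 8.11 and 7.75 against 8.73, 8.51 and 8.40, a difference of -0.76. Here siGATA-3 replicate 3 was the highest of the 6 arrays for HLTF, SFXN1 and ANAPC13, in contrast to CXCL11 and CCL5.

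The remaining genes among the 15 with the largest negative differences were raised on siGATA-3 replicate 3 as well. SMIM14, a small membrane protein, differed by -0.96, the ribosome biogenesis factor FCF1 by -0.92 and the endogenous retroviral envelope gene ERV3-1 by -0.83. DCPH1 differed by -0.78, the zinc-finger gene ZNF480 by -0.77 and CD164, a sialomucin of cell adhesion, by -0.75. For each of these siGATA-3 replicate 3 lay with the other lower arrays.

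The position of siGATA-3 replicate 3 could be set for all 82 probe sets, on a scale where 0 is the mean of the higher set and 1 the mean of the other lower arrays. Its median was 1.003, and 14 of 82 lay nearer to the higher set. Among the 51 probe sets that also separated the U-HO1 arrays in the same direction the median was 1.15, and among the other 31 it was 0.76. No test was made of that difference, since the rule chose on these arrays.

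**Figure D2:**
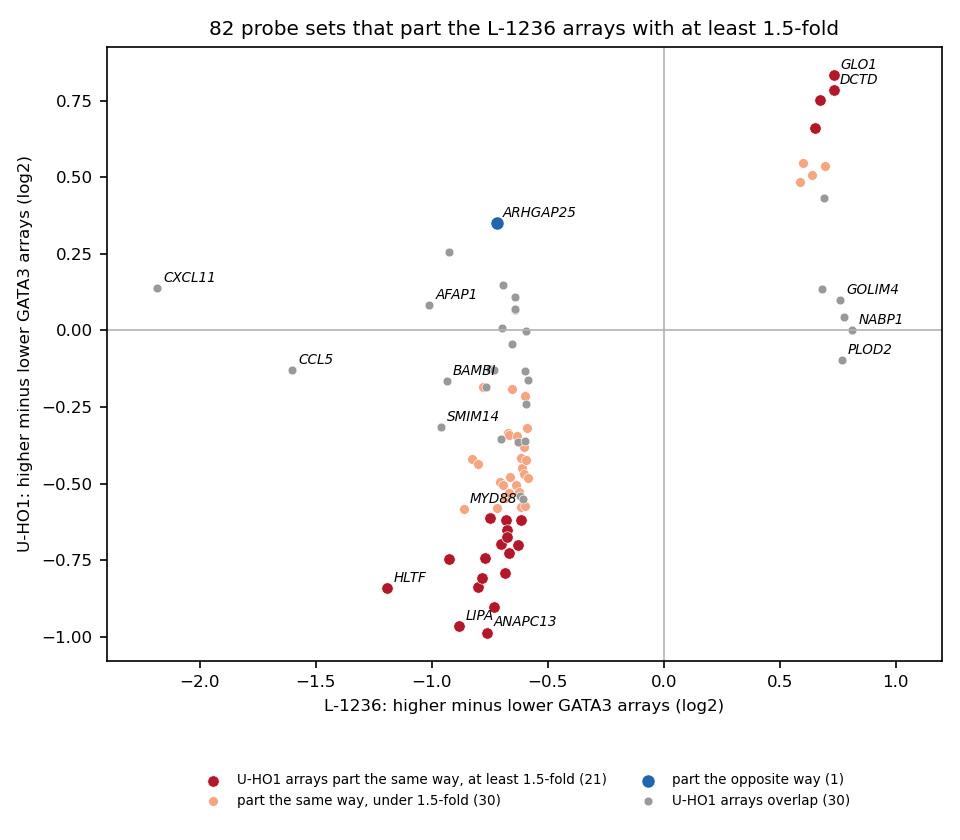
Each point is 1 of the 82 probe sets, placed by its log2 difference between higher and lower GATA3 arrays in L-1236 (x axis) and in U-HO1 (y axis). Dark red marks 21 that separated the U-HO1 arrays the same way with at least 1.5-fold, light orange 30 that did so with less, blue the 1 that separated them the opposite way and grey 30 whose U-HO1 arrays overlapped; CXCL11 and CCL5 lie far left near 0 on the y axis.

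U-HO1 arrays were not used to choose the L-1236 probe sets, so the same genes were tested there, on the U-HO1 arrays ranked by their own GATA3. That U-HO1 split also came from measured values, while limma took its sets as given. The U-HO1 p-values, SEs and chance counts do not allow for that choice. Of the 82, 71 differed in the same direction in U-HO1, and 51 (62.2%) separated its arrays in that direction without overlap. Over all probe sets, 5.0% separated the U-HO1 arrays upward and 5.54% downward with GATA3. Of all 4258 probe sets that separated the L-1236 arrays, 659 (15.5%) did so in the same direction in U-HO1 and 59 in the opposite one. With 1.5-fold asked in both lines, 21 were shared, 25.6% of the 82 in L-1236 and 26.9% of the 78 (0.241%) in U-HO1, of which 27 (0.0835%) were higher and 51 (0.158%) lower there, and 0 went in opposite directions. The median difference of the 82 was -0.65 in L-1236 and -0.35 in U-HO1. Deposition order runs with the split in both lines, and its part in this sharing cannot be told apart from that of GATA3.

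Across the genome limma called 12 probe sets (0.0371%) in U-HO1 at an adjusted p under 0.05, 3 higher and 9 lower with higher GATA3, and 1950 (6.03%) had an unadjusted p under 0.05 against 1616 reached by chance. Of the 12, 11 separated the L-1236 arrays in the same direction and 9 were among the 82. At the unadjusted level 55 of the 82 passed. The number of calls was not stable: it was 28 without siGATA-3 replicate 2 of U-HO1 and 0 without any other single U-HO1 array. With a replicate block it was also 0, but replicate 1 lay wholly in the higher set and replicate 3 wholly in the lower. The block thus left only siSCR replicate 2 against siGATA-3 replicate 2 to estimate the split, so its 0 calls say little about stability.

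The genes called in U-HO1 were mostly lower where GATA3 was higher, in both lines. ANAPC13 fell by 0.99 (SE 0.07) in U-HO1, from 9.02 ± 0.06 on the lower to 8.03 ± 0.05 on the higher GATA3 arrays (n = 3 each). Its adjusted p in limma was 0.0181, and 0.00143 to 0.643 over the alternatives. The upper end came from the replicate block, which runs with the split. CDK2AP1, an inhibitor of the kinase CDK2, read 8.70, 9.44 and 9.02 against 9.97, 9.90 and 9.51 in L-1236, a difference of -0.73. In U-HO1 it fell by 0.90 (SE 0.08), with an adjusted p of 0.0216 in limma. LAMP1, an abundant glycoprotein of the lysosomal membrane, read 8.37, 8.32 and 8.30 against 9.10, 9.05 and 8.89 in L-1236, a difference of -0.68. Its U-HO1 arrays read 8.40, 8.31 and 8.36 against 9.20, 9.13 and 9.13, a fall of 0.79 (SE 0.07) with an adjusted p of 0.0216 in limma. Within each set LAMP1 was thus at nearly the same level in both lines.

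SFXN1 fell by 0.84 (SE 0.07) in U-HO1, with an adjusted p of 0.0216 in limma. HLTF fell by 0.84 (SE 0.09) and the dynein light chain gene DYNLT3 by 0.65 (SE 0.07), both with an adjusted p of 0.0464. ZDHHC16, a palmitoyltransferase, fell by 0.70 (SE 0.07), adjusted p 0.0313, and DCPH1 by 0.81 (SE 0.08), adjusted p 0.0331. The L-1236 differences were -0.67 for DYNLT3 and -0.63 for ZDHHC16. The genes called upward in U-HO1 were IFT57 and IFT22, which belong to the transport machinery of cilia, and IQCK. They rose by 0.77, 0.70 and 0.78, and their L-1236 differences were 0.36, 0.25 and 0.38, under 1.5-fold. In L-1236 the IFT57 arrays overlapped, with 8.59, 8.88 and 8.77 against 8.70, 8.36 and 8.09.

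**Figure D3:**
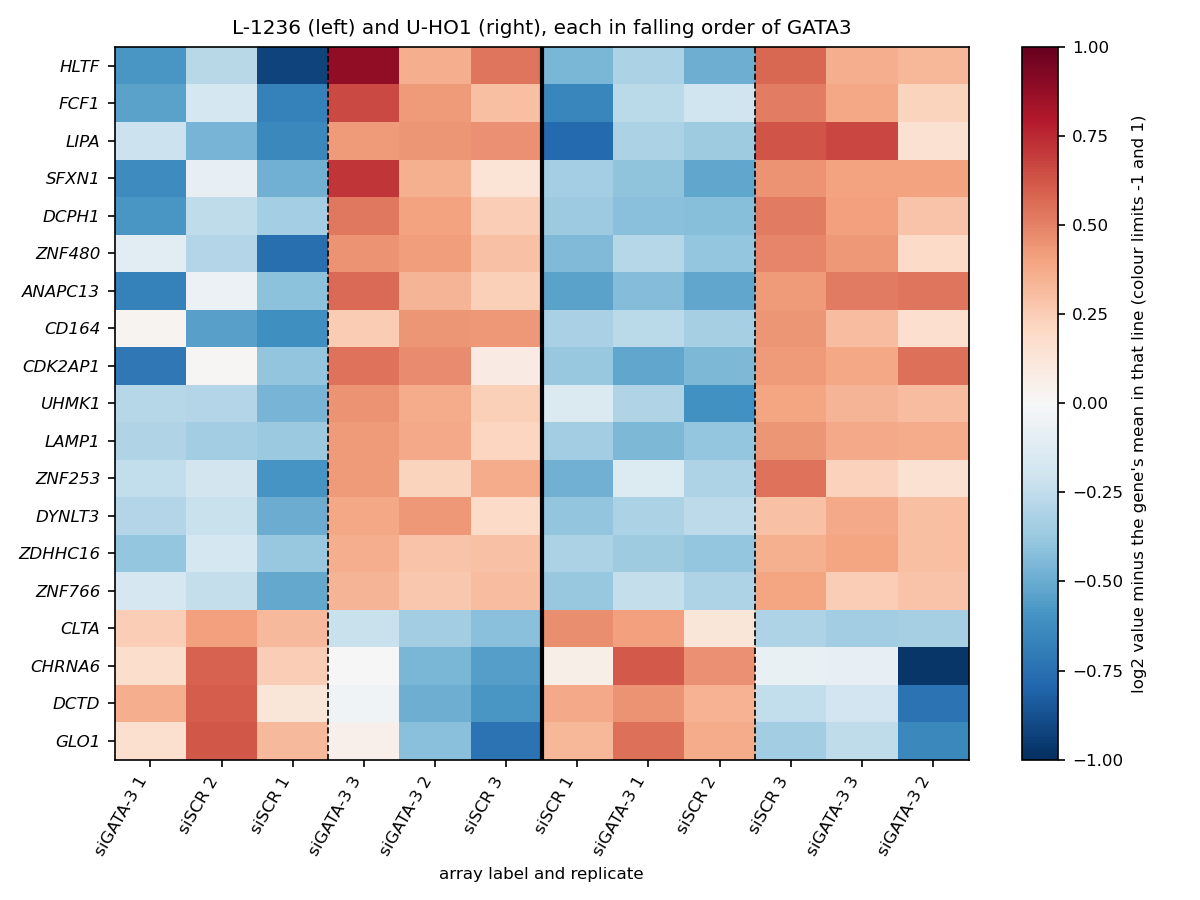
Heat map of the 19 named genes (rows) that separated the arrays of both lines in the same direction with at least 1.5-fold, over the 6 L-1236 and the 6 U-HO1 arrays (columns, each line in falling order of GATA3). Colour gives the log2 value minus the gene's mean in that line; dashed lines divide the higher from the lower GATA3 arrays, and 15 genes are lower and 4 higher on the left of each dashed line.

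In all, 19 named genes met these limits in both lines, 15 lower and 4 higher with higher GATA3. Over all genes 0.331% met them in U-HO1, 0.201% lower and 0.13% higher. Besides the genes above they include UHMK1, a serine-threonine kinase, with differences of -0.70 in L-1236 and -0.70 in U-HO1. The zinc-finger genes ZNF253 and ZNF766 differed by -0.68 and -0.61 in L-1236, and by -0.62 and -0.62 in U-HO1. FCF1, LIPA, ZNF480 and CD164 differed by -0.75, -0.97, -0.74 and -0.61 in U-HO1. Their adjusted p-values there ran from 0.0658 to 0.131 in limma, above the threshold.

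Promoters of these genes were searched for 4 GATA-type motifs, since GATA3 binds such sequences. They were AGATAA or, with another last base, AGATAG, and likewise TGATAA or, with that other last base, TGATAG, on either strand within 250 bases upstream of the RefSeq start. Of the 16 promoters found for the 19 genes, 3 held a motif (18.8%), against 17.5% of 14230 promoters of genes on the array and 22.9% of all 27305. Of all named genes among the 82, motifs were found in 1 of 9 promoters of genes higher and in 11 of 45 promoters of genes lower with higher GATA3. These shares lie around the background, and matches are descriptions of letters, not of binding. The promoters of the 3 genes with a motif, CLTA, UHMK1 and ZNF766, are shown on the strand of the gene, 5′ to 3′, from RefSeq on GRCh38.p14, with CLTA at chr9:36190671-36190920, UHMK1 at chr1:162497555-162497804 and ZNF766 at chr19:52269337-52269586, all on the plus strand. CXCL11, the gene with the largest difference, is added (chr4:76036071-76036320, minus strand). Capitals mark the motifs.
CLTA: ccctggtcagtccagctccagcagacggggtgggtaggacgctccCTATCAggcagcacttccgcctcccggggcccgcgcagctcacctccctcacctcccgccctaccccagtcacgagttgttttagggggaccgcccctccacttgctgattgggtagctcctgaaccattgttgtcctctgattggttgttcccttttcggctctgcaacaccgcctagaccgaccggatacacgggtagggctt
UHMK1: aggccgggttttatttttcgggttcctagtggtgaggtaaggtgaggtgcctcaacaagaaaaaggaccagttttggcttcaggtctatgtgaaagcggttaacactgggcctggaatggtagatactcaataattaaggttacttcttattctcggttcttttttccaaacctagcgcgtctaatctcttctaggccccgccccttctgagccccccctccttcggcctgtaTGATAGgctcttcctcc
ZNF766: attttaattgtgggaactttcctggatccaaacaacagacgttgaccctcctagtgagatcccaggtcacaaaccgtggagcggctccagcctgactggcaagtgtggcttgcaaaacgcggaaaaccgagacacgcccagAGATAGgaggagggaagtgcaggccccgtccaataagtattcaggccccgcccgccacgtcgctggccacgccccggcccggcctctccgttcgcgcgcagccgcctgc
CXCL11: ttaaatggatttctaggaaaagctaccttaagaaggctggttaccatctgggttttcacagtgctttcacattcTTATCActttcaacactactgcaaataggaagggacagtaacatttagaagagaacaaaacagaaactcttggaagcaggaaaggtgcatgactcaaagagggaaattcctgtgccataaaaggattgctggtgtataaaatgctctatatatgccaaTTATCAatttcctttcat
The CXCL11 promoter holds TTATCA, the reverse complement of TGATAA, in 2 places.

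Cytokine genes that GATA3 promotes in T cells differed little between the L-1236 sets. IL5 read 5.47 to 5.61 on the L-1236 arrays and differed by 0.03, a value that changes sign after quantile normalization and after centring of array medians. In U-HO1, where IL5 was measured well above that level, it read 8.64, 7.86 and 8.14 on the higher GATA3 arrays and 6.83, 7.29 and 7.40 on the lower. That difference of 1.04 (SE 0.21) had an adjusted p of 0.181 in limma. IL13 differed by 0.13 and IL4 by 0.06 in L-1236, both with overlapping arrays. IL4 lay at 5.66 to 5.80, near the level of the T-cell genes that mark other cells.

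STAT4 read 6.48, 6.42 and 6.49 on the higher and 6.51, 6.74 and 6.70 on the lower GATA3 arrays. It separated the L-1236 sets by a margin of hundredths, with a difference of -0.19. In U-HO1, where STAT4 lay between 9.59 and 9.95, the difference was 0.05 (SE 0.10). CCL17 and CCL22, chemokines that draw T-helper 2 and regulatory T cells, differed by -0.06 and 0.19 in L-1236 with overlapping arrays, and CCL22 was -0.18 without siSCR replicate 2. TNFRSF8 differed by -0.28 in L-1236 and by -0.26 in U-HO1 (SE 0.09), with an adjusted p of 0.628 in limma.

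Among probe sets with an SD of at least 0.3 over the 6 L-1236 arrays, those most like GATA3 by Pearson correlation were GOLIM4 (0.99), MRPL46 (0.99), INIP (0.98), MID1 (0.98) and SELENOF (0.97). MRPL46 encodes a mitochondrial ribosomal protein, and INIP a partner of single-stranded DNA binding proteins. The most opposed were PLCG2 (-0.92), ZBTB32 (-0.88), CTDSP2 (-0.88), PLA2G4C (-0.87) and ARAP2 (-0.86). PLCG2 is a phospholipase of B-cell receptor signalling and CTDSP2 a nuclear phosphatase. Another PLCG2 probe set, read at 12.91 to 13.15, differed by 0.09, so probe sets of this gene disagree. These correlations rest on 6 arrays whose order fixed the split.

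The T-helper 2 list showed little movement with GATA3. Of its 23 measured genes, 16 were higher and 7 lower on the higher GATA3 arrays, 3 separated the arrays upward and 1 downward, and the median difference was 0.06 against 0.01 over all genes. Over all 18403 genes, 15.2% separated the L-1236 arrays, 8.09% upward and 7.14% downward, and in U-HO1 12.0% did, 5.73% upward and 6.29% downward. The gene that separated them downward was STAT6, which carries interleukin-4 and interleukin-13 signals, with 11.45, 11.22 and 11.24 against 11.64, 11.84 and 11.80. STAT6 differed by -0.46 in L-1236 and by -0.40 (SE 0.09) in U-HO1, adjusted p 0.265 in limma.

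In the T-helper 1 list of 21 genes, 15 were lower and 5 separated the L-1236 arrays downward, where 7.14% of all genes did so. Among the 5 were IL18R1 (-0.32), a subunit of the interleukin-18 receptor, JAK2 (-0.26) and RUNX3 (-0.20). The list's median was -0.12 in L-1236 and 0.05 in U-HO1, where 0 separated the arrays downward. TBX21, the T-helper 1 master regulator, differed by -0.12 and IFNG by 0.01, both with overlapping arrays.

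The list of JAK-STAT components and regulators had 10 of 25 members that separated the L-1236 arrays, 2 upward and 8 downward. Over all genes, 8.09% did so upward and 7.14% downward. Of the 10, 5 also separated the U-HO1 arrays in the same direction, against 15.5% of all probe sets that separated the L-1236 arrays. SOCS4, a suppressor of cytokine signalling, read 8.13, 8.28 and 7.84 against 8.76, 8.51 and 8.61, with differences of -0.55 in L-1236 and -0.40 (SE 0.08) in U-HO1. PTPN11, the phosphatase SHP2, ran the other way, with 9.68, 9.81 and 9.58 against 9.35, 9.02 and 9.23, and differences of 0.49 and 0.51 (SE 0.09). PIAS3, an inhibitor of STAT3, differed by -0.44 in L-1236 and -0.01 in U-HO1. No member passed an adjusted p of 0.05 in U-HO1 (limma, 0.0598% of all genes), while 6 passed an unadjusted 0.05 (6.87% of all genes). The list's medians were -0.13 and -0.09.

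Of the 21 p53 targets, 4 separated the L-1236 arrays, all downward, where 15.2% of all genes did so, 7.14% downward. In U-HO1, 6 of the 21 did so downward, the same 4 among them, and 1 upward, against 6.29% and 5.73% of all genes. The 4 shared by both lines were RRM2B, a ribonucleotide reductase subunit (-0.53 in L-1236, -0.22 in U-HO1), TNFRSF10B, a TRAIL receptor (-0.39 and -0.31), POLH, a translesion polymerase (-0.34 and -0.48), and TIGAR (-0.24 and -0.37). None passed the adjusted threshold of limma in U-HO1. CDKN1A, the p53 target that encodes p21, differed by 0.04, and MDM2 by 0.45 with overlapping L-1236 arrays.

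The largest median of any list belonged to the interferon response, a set of genes that interferons switch on against viruses. Of its 46 measured genes, 43 were lower and 3 higher on the higher GATA3 arrays, with a median of -0.92. Nonetheless 0 separated the arrays downward and 2 upward (CMPK2 and IFITM2, by 0.11 and 0.14). The list mean read 8.88, 7.80 and 7.94 on the higher arrays and 8.32, 9.35 and 9.51 on the lower arrays. Thus siGATA-3 replicate 1, the array with the most GATA3, stood above siGATA-3 replicate 3 of the lower set for 44 of 46 genes. For 39 of 46 genes siGATA-3 replicate 2 and siSCR replicate 3 were both above all other arrays. Without siGATA-3 replicate 1 the median was -1.28 and 35 genes separated the arrays downward, without siGATA-3 replicate 3 it was -1.30 with 39, and without any other array it was -0.62 to -0.67 with 0.

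IFIT1, an interferon-induced protein that binds viral RNA, read 7.88, 6.45 and 6.69 against 7.18, 10.19 and 10.17, a difference of -2.17. IFIT2, IFIT3 and MX1, a GTPase that blocks viruses, differed by -2.13, -1.98 and -1.60. MX1 read 10.16 on siGATA-3 replicate 1 and 9.53 on siGATA-3 replicate 3, so its sets overlapped. The RNA sensors IFIH1 and RIGI and their relative DHX58 were likewise highest on siGATA-3 replicate 2 and siSCR replicate 3, with differences of -1.05, -1.03 and -1.02. In U-HO1 the interferon list had a median of -0.03, and its array means stayed between 8.18 and 8.40. The interferon list shared its highest arrays, siGATA-3 replicate 2 and siSCR replicate 3, with CXCL11, CCL5, AFAP1 and BAMBI. The list mean was higher on siGATA-3 replicate 1 than on siGATA-3 replicate 3, while these genes were lower. For these genes that order was fixed, since they were chosen for sets that do not overlap. The part of the interferon response in their differences was not tested.

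**Figure D4:**
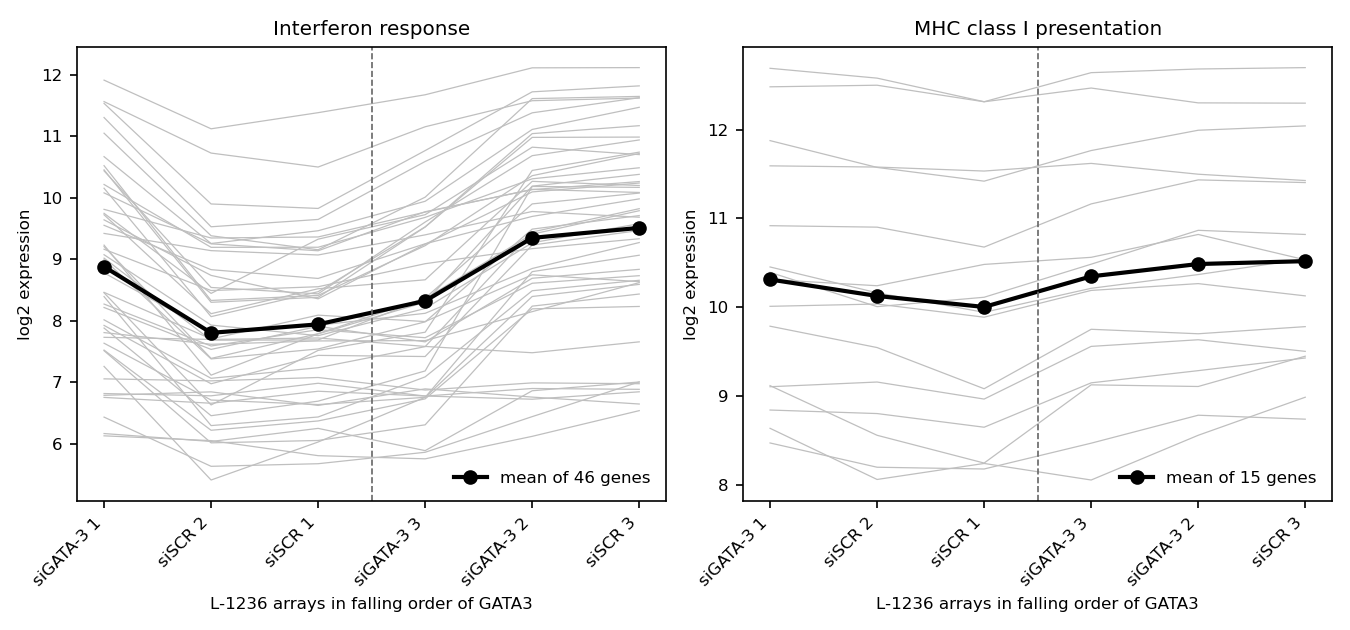
Log2 expression (y axis) on the 6 L-1236 arrays in falling order of GATA3 (x axis) for 46 interferon response genes (left) and 15 genes of MHC class I presentation (right). Grey lines join the values of 1 gene, the black line is the list mean and the dashed line divides the sets; the interferon mean is 9.35 and 9.51 on siGATA-3 replicate 2 and siSCR replicate 3 and 7.80 to 8.88 elsewhere.

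Interferon-regulated promoters were compared by the motif GAAANNGAAA (N is any base) on either strand, the core of the element that interferon-activated factors bind. It was found upstream of 22 of 38 interferon list genes (57.9%), against 2.57% of genes on the array and 3.07% of all promoters. Among genes of the 82 it was found upstream of 2 of 45 lower genes, MYD88 and TFAP2A-AS1, 0 of 9 higher genes and 0 of 16 shared by both lines. IFIT1 (chr10:89392373-89392622, plus strand) and MYD88 (chr3:38138411-38138660, plus strand) are shown from RefSeq, GRCh38.p14, because IFIT1 overlapped between the sets while MYD88 separated the arrays of both lines. Capitals mark the motif or its reverse complement.
IFIT1: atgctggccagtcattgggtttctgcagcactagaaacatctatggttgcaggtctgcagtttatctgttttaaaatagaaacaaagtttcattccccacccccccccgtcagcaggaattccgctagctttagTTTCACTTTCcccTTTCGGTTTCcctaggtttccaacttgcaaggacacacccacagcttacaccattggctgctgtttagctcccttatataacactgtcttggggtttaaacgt
MYD88: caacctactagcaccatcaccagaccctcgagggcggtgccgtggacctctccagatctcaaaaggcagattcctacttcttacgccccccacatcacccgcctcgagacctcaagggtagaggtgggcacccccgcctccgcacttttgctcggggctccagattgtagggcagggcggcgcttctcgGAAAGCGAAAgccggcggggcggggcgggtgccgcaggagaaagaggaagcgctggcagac
MYD88 differed by -0.58 (SE 0.09) in U-HO1, where the interferon list differed by -0.03, with an adjusted p of 0.0848 in limma.

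MHC class I presentation, which loads peptides for killer T cells, went the same way with smaller differences. Of its 15 genes, 13 were lower on the higher GATA3 arrays, with a median of -0.29. The arrays were separated downward by 6 of the 15, against 7.14% of all genes. B2M, the invariant light chain, read 10.92, 10.90 and 10.68 against 11.16, 11.43 and 11.40, a difference of -0.50. TAPBPL, a peptide editor, differed by -0.52, and the immunoproteasome subunits PSMB9 and PSMB8 by -0.55 and -0.49. In U-HO1, 6.29% of all genes separated the arrays downward. B2M and TAPBPL also did so, with -0.26 (SE 0.08) and -0.32 (SE 0.07), adjusted p 0.582 and 0.231 in limma. PSMB9 and PSMB8 did not, with -0.05 and 0.01.

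Cell-cycle genes followed neither set. The mean of 24 mitosis genes was 9.65 on siSCR replicate 2 and 9.69 on siGATA-3 replicate 3, arrays of opposite sets, and 8.87 to 9.15 on the others. The mean of 28 DNA replication genes was likewise highest on these arrays, at 9.47 and 9.53, and 8.79 to 9.09 elsewhere. None of these genes separated the L-1236 arrays. Their list medians of -0.03 and -0.07 turned to 0.07 and 0.01 after quantile normalization.

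Over all genes, 8.09% separated the L-1236 arrays upward and 7.14% downward, the background for the next lists. Of 22 genes of cell death, 6 were higher and 16 lower on the higher GATA3 arrays, with a median of -0.11. Of the 22, 1 separated the arrays upward and 2 downward. Among them MCL1, a BCL2 relative that blocks apoptosis, read 10.83, 10.69 and 10.79 against 11.17, 11.35 and 11.30, with differences of -0.51 in L-1236 and -0.35 (SE 0.10) in U-HO1, adjusted p 0.463 in limma. Of 23 B-lineage genes, 14 were higher and 9 lower on the higher GATA3 arrays, with a median of 0.04 that turns negative after centring of array medians, and 3 separated them upward and 3 downward. Among these, CD22 and CD37, surface proteins of B cells, differed by -0.57 and -0.38, and CD79B, a chain of the B-cell receptor complex, by 0.16. None of these 3 separated the U-HO1 arrays. CD22 read 9.12 on siSCR replicate 2 and 9.22 to 9.27 on the lower arrays. Of 24 integrin and adhesion genes, 13 were higher and 11 lower, 3 separated the arrays upward and 4 downward, and the median of 0.03 turns negative after quantile normalization or centring. Among them ITGA4, the integrin alpha-4 chain, differed by -0.28 in L-1236 and -0.71 (SE 0.14) in U-HO1, where its adjusted p was 0.168 in limma.

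**Figure D5:**
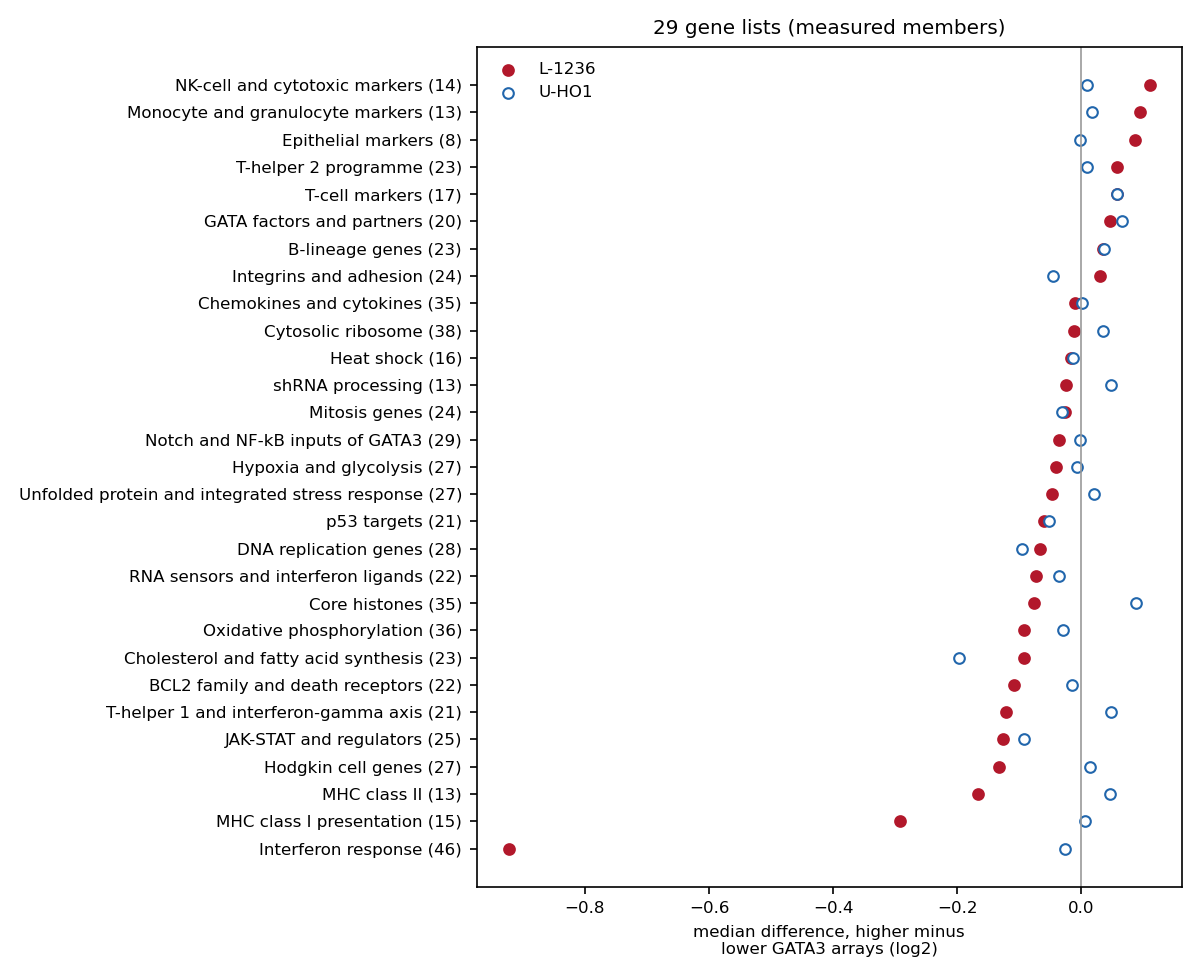
Median log2 difference between higher and lower GATA3 arrays (x axis) over the measured members of 29 gene lists (y axis, number of genes in brackets), for L-1236 (filled red) and U-HO1 (open blue). The interferon response at -0.92 and MHC class I presentation at -0.29 stand apart in L-1236 and lie at -0.03 and 0.01 in U-HO1.

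Among all genes, 15.2% separated the L-1236 arrays, 8.09% upward. Lists of NK-cell, monocyte and epithelial markers had medians of 0.11, 0.10 and 0.09 in L-1236, with 3 of 14, 3 of 13 and 1 of 8 genes that separated the arrays, all upward. Their levels differed, with PRF1 at 6.52 to 6.89, S100A9 at 6.25 to 6.56 and KRT18 at 7.79 to 8.37. The T-cell list had a median of 0.06 in both lines. CD4, with 8.94, 8.65 and 7.99 against 8.95, 8.91 and 8.87, was the T-cell list member with the largest difference, and its arrays overlapped. Whether a mix of cells moved with the split was not tested.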

How the data were processed

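The deposited table holds 32321 probe sets on 12 arrays. Per the deposited values, which run from 3.86 to 13.99, the scale was taken as log2; which background correction, normalization and summary steps the authors used is not given in the sources used here. The submitters' processing notes name R 2.8.1. Gene names come from the platform annotation: 19158 probe sets have 1 symbol, 1388 several and 11775 none here, and 19128 of those with 1 symbol matched a RefSeq gene table (GRCh38.p14). The brightest probe set stood for each of 18404 genes. No genome build is named for the arrays, and their number limits the precision.

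The arrays of each line were ranked by GATA3 and split 3 against 3. In L-1236, differences of means and overlap were described without a test. U-HO1 was tested with limma 3.58.1 (R 4.3.3) on its 6 arrays, and the study's labels in L-1236 on all 12, with Benjamini-Hochberg adjustment over all probe sets, leaving GATA3 out in U-HO1. The fits were tested on simulated data. The members and lists were chosen with earlier results of these data known. Named genes were GATA3, STAT4, IL5, IL13, IL4, CCL17, CCL22 and TNFRSF8; up to 15 per direction with the largest difference among non-overlapping probe sets with at least 1.5-fold; up to 20 shared by both lines; up to 4 members with the largest difference per list; and the 5 most and least like GATA3. Other genes were named after their values were seen, as were the U-HO1 calls and the motif GAAANNGAAA. Promoters cover 250 bases before RefSeq starts. Alternatives were centring of array medians, quantile normalization, leaving out probe sets with a mean under 6, 1 probe set per gene, a 2-fold limit, leaving out both boundary arrays or each array, all 12 arrays in 1 fit, a trended and robust prior, array weights (statmod 1.5.0) and a replicate block. Sharing between lines was recomputed as an alternative added after seeing the data.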

Additional observations from a re-analysis of the deposited data

Results flagged for a closer look

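ARHGAP25, a GTPase-activating protein of blood cells, separated the arrays of the lines in opposite directions, with every higher GATA3 array below every lower one in L-1236 (log2 difference -0.72) and the reverse in U-HO1 (0.35). It was the 1 probe set of the 82 to do so, it was chosen after its values were seen, and the difference between the lines was not tested.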

How the results depend on the processing

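The L-1236 count of 82 was 70 after quantile normalization, 109 after centring of array medians (9 higher, 100 lower), 78 without dim probe sets and 61 with 1 probe set per gene. It moved to 4 at a limit of 2-fold and to 243 without both boundary arrays (92 higher, 151 lower), and without each array in turn it was 95 to 223. Sets with fewer arrays separate more easily, which favours higher counts whenever arrays are left out. Of these 243, 29.6% separated the U-HO1 arrays in the same direction. The 21 shared by both lines were 18 to 26 under the other settings, 0 at 2-fold, and 20 to 29 without each array. No sign changed among the 33 named genes that reached the fold without overlap. Leaving out arrays could not have changed a sign there, because the sets do not overlap for these genes. Medians of 8 of 29 lists changed sign after quantile normalization, of 2 after centring and of 12 without the boundary arrays; the interferon list stayed between -0.62 and -1.30.

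The 12 calls in U-HO1 became 40 after quantile normalization, 3 after centring, 22 without dim probe sets, 114 with 1 probe set per gene, 40 with all 12 arrays in 1 fit, 5 with a trended and robust prior and 232 with array quality weights. Without each array in turn there were 0 to 28. With 1 probe set per gene, fewer probe sets were tested, but the fit was also made anew. There 1462 genes had an unadjusted p under 0.05 in limma, against 1264 of the same genes in the main fit. The cause of the changes in the number of calls was not tested. The label comparison in L-1236 kept 0 calls under all of its alternatives.

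Replicate numbers did not pair the samples: same-numbered arrays of the labels correlated in their deviations at 0.17, -0.40 and -0.22 in L-1236 and at -0.17, 0.06 and 0.32 in U-HO1. With a replicate block the U-HO1 split had 0 calls, with 2117 probe sets under an unadjusted 0.05, and the label comparison in L-1236 had 0 with 1516. In U-HO1 only the replicate 2 arrays lay in different sets, so the block removed most of the split there. Splits of 3 arrays against 3 limit all of these values, and a narrow GATA3 boundary limits the L-1236 split itself.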
